A study of Mus musculus with 9 samples.

Results

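Of the 53172 rows (listed gene names) in the count table of mouse bone marrow (BM), 158 rose in 2 steps, from healthy mice (Health) to recipients of a bone marrow transplant (BMT) and again to recipients of costal cartilage-derived stem cells (CDSCs). The members were selected on the counts of all 9 mice, scaled to the mouse's total as CPM (counts per 1000000). A row was kept when its mean in CDSCs was at least 1 CPM, when every CDSCs mouse lay above every BMT mouse and every BMT mouse above every Health mouse, when each step was a rise of more than 25% in the mean, and when the mean in CDSCs was at least 2 times that in Health. Names starting with mt-, Ig, Col, Mmp or Gimap were left out, which removed 3 rows (Col15a1, Mmp12 and Mmp13).

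Each group held 3 mice with 1 library each. BMT and CDSCs mice had received 9.5 Gy of whole-body irradiation and then 500000 cells, and their marrow was taken 2 weeks after transplantation. By the study's methods the recipients were wild-type CD45.2 C57BL/6J mice 16 weeks old, and the donor cells carried CD45.1 or ZsGreen. The CDSCs were dissociated from the rib cartilage of newborn mice and were not purified before transfer, so that the transplant also carried a few blood-forming cells. By the methods BMT mice received BM cells and CDSCs mice the isolated cartilage cells, with no added BM cells mentioned. The BM donors were newborn or adult, and which were used for these libraries is not said. Where they were adult, donor age cannot be told apart from the kind of cells given. Health mice were of the same age and were neither irradiated nor transplanted, so irradiation separates them from both other groups and cannot be told apart from transplantation here. By the labels all marrow cells were taken, but the methods speak of equal amounts of CD45+ and CD45- cells, merged after sequencing. If so, the share of either fraction in a library was set by the merging and not by the marrow, and the levels and marker sums given here hold for that mix. Totals were between 8741155 and 10181289 counts per mouse, and no group stood apart in depth.

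Bone marrow holds the blood-forming cells and, beside them, resident macrophages that engulf dying cells and the nuclei expelled by maturing red cells. These macrophages carry scavenger receptors and adhesion molecules and make components of the complement system, a set of blood proteins that tag cells for removal. Stromal cells, endothelial cells and lymphocytes that pass through or settle in the marrow add their own transcripts. A bulk library sums over the cells that went into it, and in such samples more cells of a type and more RNA per cell cannot be told apart.

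The listed names had to be checked before any gene could be described. Genes that marrow uses heavily were almost empty under their own names. Actb, which codes for a cytoskeletal actin, had a mean of 28.1 counts, the macrophage and neutrophil lysozyme Lyz2 had 8.22, and the globin Hbb-bs and the neutrophil genes S100a8 and Camp had 0. The row listed as the olfactory receptor Olfr648 had 350395. When rows were laid on the GENCODE M21 annotation of GRCm38, the pattern of rows with and without reads along a chromosome was matched to protein-coding exons at a displacement that could stay constant over long stretches. The displacement was estimated from the counts and the annotation, as the distance at which rows with reads overlap such exons and rows without reads do not. For 7843 rows with at least 50 mean counts it was more than 10 kb in 91.6%, with a median size of 114.3 kb. At that distance 93.1% of these rows overlapped protein-coding exons, a share that the estimate itself raises, while 77.8% had a protein-coding listed name. Of the same rows 85.2% were put on the same gene whether changes of displacement were penalised lightly or strongly (the genome-wide settings), and 12.1% were put on the gene they are named for. The row Gm32141, placed on Lyz2, held 46526 counts, but placement did not recover every gene. Actb was placed on itself and stayed at 28.1 counts, Gapdh had 877 counts under its own name and 0 in the row placed on it, and no row was placed on Hbb-bs, S100a8 or Camp. At least 10 mean counts were found for 17 of 38 cytosolic ribosome genes by listed name and for 9 by placement, for 15 and 10 of 32 proteasome genes, for 11 and 14 of 35 genes of oxidative phosphorylation and for 6 and 11 of 17 of glycolysis. Of 1410 olfactory receptors, which marrow is not known for, 111 had such counts by listed name and 5 by placement. A placement is therefore an estimate, and it can be wrong for a single row. The cause of the displacement was not tested.

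Neighbouring rows gave a limited check that did not enter the estimate. Pairs of neighbouring rows placed on the same gene had a median Pearson r of 0.746 in log2(CPM + 0.5) over the 9 mice (1548 pairs), and pairs placed on different genes had 0.193 (5115 pairs). These are correlations across the same 9 libraries and are given as a description.

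**Figure D1:**
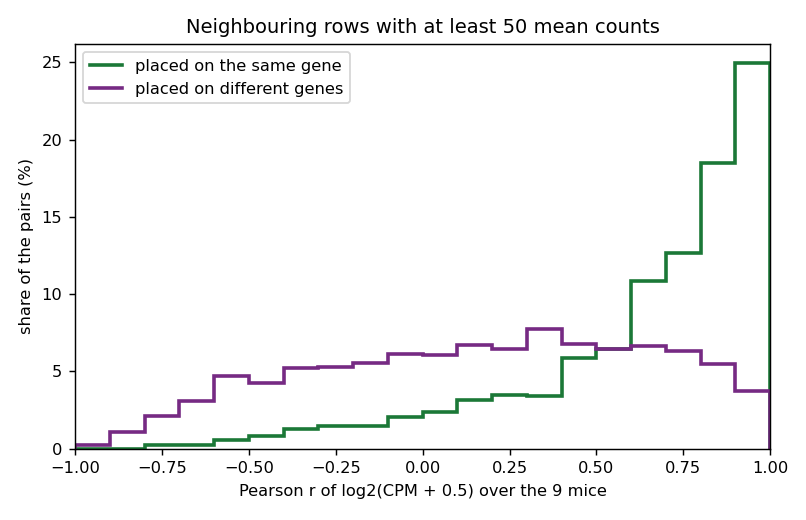
Share of pairs of neighbouring rows (y axis, %) by the Pearson r of their log2(CPM + 0.5) over the 9 mice (x axis, bins of 0.1), for pairs placed on the same gene and on different genes. Pairs placed on the same gene gather at high r with a median of 0.746, while the others spread around a median of 0.193.

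In what follows a row is given by its listed name with the gene it was placed on in brackets, as in Mavs (Siglec1), and roles are those of the gene in brackets. Genes of the fixed lists that are no members are named by the gene a row was placed on with the genome-wide settings, and their values come from that row, whose own listed name is given with them. Of the 158 members, 99 were put on the same gene by 3 estimates (the genome-wide settings, which count as 2, and a scan of each member's nearest rows), 21 of them on their own listed gene and 78 on another. The 3 displacements lay within 10 kb of each other for 94 of the 99, with a median spread of 0.1 kb. A further 18 were placed by the genome-wide settings while the local scan gave another gene or none, which is said where such a row is named. The remaining 41, of which 5 have no unique name in the annotation, are given by their listed name alone. Rows placed on the gene they are named for are also given without brackets. Since a row's exons cover only parts of the gene its reads come from, levels are compared between mice and never between rows.

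The members rose from a median of 1.59 CPM in Health through 4.93 in BMT to 11.6 in CDSCs. Their summed level was between 2160 and 2349 CPM in the Health mice, between 3926 and 4473 in BMT and between 6913 and 7282 in CDSCs, so the sums of the groups did not overlap, as the choice of members requires. Within a group the members did not spread evenly over the mice. CDSCs mouse 1 held the highest CDSCs value of 82 members and BMT mouse 3 the highest BMT value of 79. The median coefficient of variation of a member was 28.4% in Health, 18.2% in BMT and 25.4% in CDSCs.

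Of the rows with a mean of at least 1 CPM in CDSCs, 309 of 12071 (2.56%) had all 9 mice in this order. The limits on the steps and on the total then left 161, and the name filter 158. The opposite order was held by 179 of 11808 rows with at least 1 CPM in Health (1.52%).

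The size of the steps could be followed for the 122 members whose Health mean was at or above the level of 3 counts per mouse (0.318 CPM). Their ratio of CDSCs to Health ran from 2.01 to 46.0 with a median of 4.66, and was at least 5 for 55 members and at least 10 for 17. The first step was the larger in 81 and the second in 41. In the median member 55.8% of the rise on the log2 scale had been reached in BMT, with a range from 31.8% to 83.7%. The other 36 members had a Health mean below that level, 7 of them with no count in any Health mouse, and no ratio is given for them unless it is a lower bound.

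**Figure D2:**
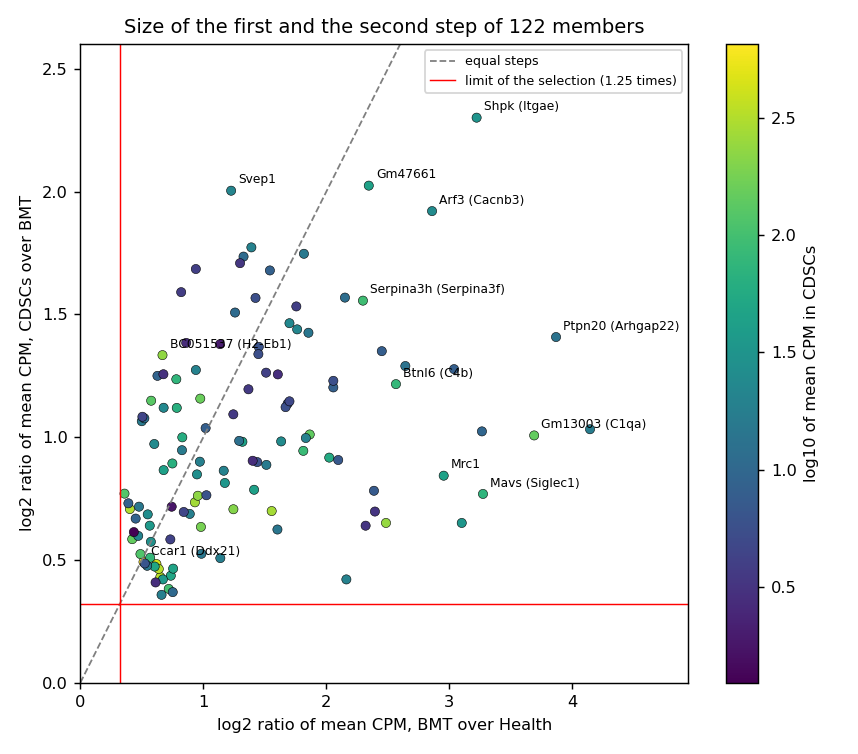
Log2 ratio of mean CPM from Health to BMT (x axis) and from BMT to CDSCs (y axis) for the 122 members with enough counts in Health, coloured by their log10 mean CPM in CDSCs, with the selection limit of a 25% rise in red and a dashed line of equal steps. Gm13003 (C1qa) and Mavs (Siglec1) lie far to the right of the dashed line and Svep1, with its high CDSCs mouse 3, far above it, and 81 of the 122 points have the larger first step.

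The limits cut the members at different places. Rows outside a limit are given by their listed names, with no placement. For the total of 2 times the closest rows inside were Ccar1 (Ddx21), Zfp248 (Bms1) and Rab4a (Agt), each at 2.01. The closest outside were Tmem86a at 1.97, Smchd1 at 1.96 and Uso1 at 1.93, and 47 rows failed this limit alone. For the first step Tyk2 (Icam5) at 1.28, Birc6 (Ttc27) at 1.31 and Plbd2 (Ddx54) at 1.32 were the closest inside. The gene of Plbd2 is that of the genome-wide settings, and the local scan gave another. For this step 1 row, Mdh1b at 1.20, failed the limit alone. For the second step the unplaced Gm29372 at 1.28, Ccdc130 (Hook2) at 1.29 and Cdc14a (Vcam1) at 1.30 lay inside. Here 1 row, Gm30409 at 1.08, failed the limit alone.

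All 3 contrasts between the groups were used to choose the members, so the calls that follow describe them and test nothing. edgeR's quasi-likelihood test over 12572 rows, of which 147 were members, called 145 members higher in CDSCs than in Health, where 17.0% of all rows tested were called and 8.69% were called higher. Between BMT and Health it called 49 members higher, beside 2.44% of all rows called, 0.994% higher and 1.45% lower. Between CDSCs and BMT it called 16 members higher, beside 1.03% of all rows called, 0.326% higher and 0.7% lower, and no contrast called a member lower. Both steps were called for 9 members, the first alone for 40, the second alone for 7 and neither for 102, which include the 11 members that were not tested. The median log2 fold change of the members tested was 1.32 from Health to BMT and 1.02 from BMT to CDSCs, while the medians of all rows were -0.02 and 0.01. The counts of members called at either step depended on the fit. For the first step it was 78 with DESeq2, 80 with the likelihood ratio test and 89 with no filter on low counts, and between 25 and 65 with 1 mouse left out. For the second step it was 80 with DESeq2, 1 with only the 6 mice compared and 2 with the replicate number as a block, 0 without BMT mouse 1 and 31 without CDSCs mouse 3, so single calls between CDSCs and BMT given further on rest on the fit over all 9 mice.

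The 15 members with the highest mean in CDSCs are given first, and the levels of different rows are not compared. Ccar1 (Ddx21), on an RNA helicase that takes part in making ribosomes, stood at 315, 303 and 358 CPM in the Health mice, 513, 389 and 491 in BMT and 529, 725 and 703 in CDSCs. The lowest CDSCs mouse was thus only just above the highest BMT mouse, and the groups did not overlap. Tars, the threonyl-tRNA synthetase that loads threonine onto its tRNA, read 210, 195 and 205 CPM in Health, 314, 305 and 318 in BMT and 380, 516 and 415 in CDSCs. Its BMT mice were within a coefficient of variation of 2.12%, the smallest of any member in that group. Nol6, a nucleolar protein of ribosome assembly, went from 153 ± 18.6 CPM (SD, n = 3) in Health to 238 ± 18.8 in BMT and 328 ± 54.5 in CDSCs.

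Plbd2 (Ddx54), on another RNA helicase by the genome-wide settings but placed on Rasal1 by the local scan, had 144 CPM in Health, 190 in BMT and 311 in CDSCs. Zfp248 (Bms1), on a GTPase of the small ribosomal subunit's assembly, had 72.4, 97.0 and 145 CPM. The ratios of Ccar1, Tars, Nol6, Plbd2 and Zfp248 lay between 2.01 and 2.16, at the low end of the members. Kmt5c, which was not placed, had 156 CPM in Health, 245 in BMT and 330 in CDSCs.

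**Figure D3:**
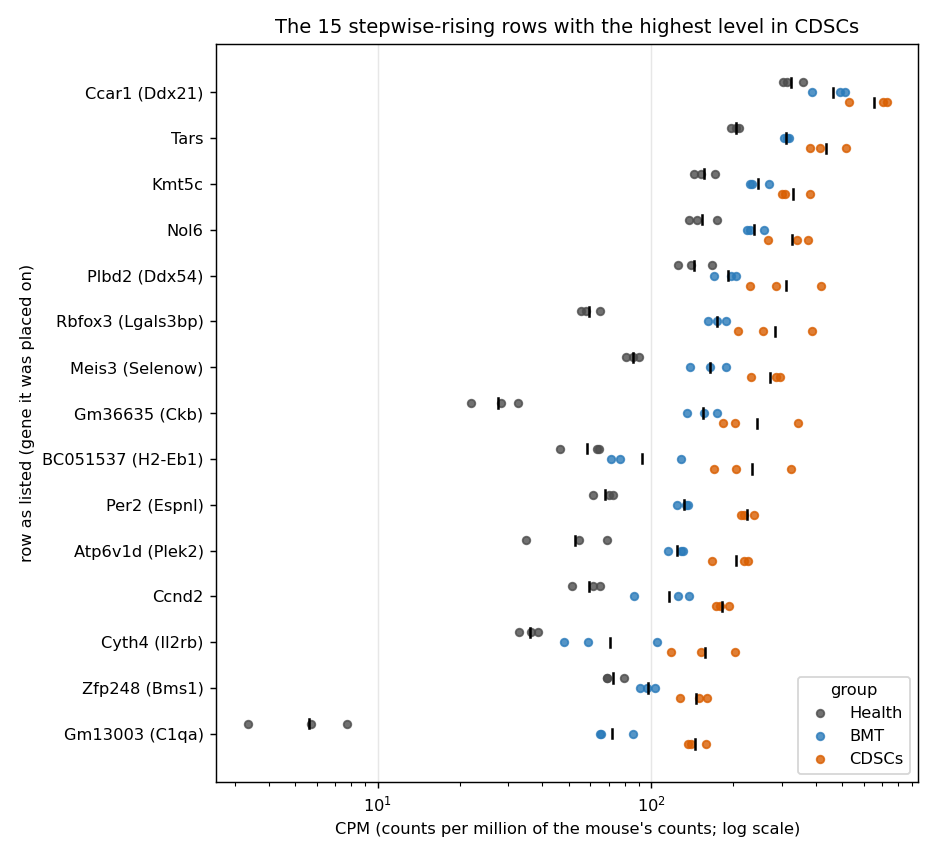
CPM on a log axis of the 15 members with the highest mean in CDSCs, 1 point per mouse and a short black line at the mean of each group, with the gene given by the genome-wide settings in brackets where it differs from the listed name. The 3 groups follow each other without overlap in every row, narrowly in Ccar1 (Ddx21) and with a wide first gap in Gm36635 (Ckb) and Gm13003 (C1qa).

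Gm36635 (Ckb), on the brain-type creatine kinase that buffers cellular energy, had 21.9, 28.4 and 32.7 CPM in the Health mice, 135, 155 and 174 in BMT and 344, 183 and 202 in CDSCs, a total of 8.79 times. CDSCs mouse 1 was far above the other two. Rbfox3 (Lgals3bp), on a secreted galectin-binding glycoprotein by the genome-wide settings but placed on C1qtnf1 by the local scan, stood at 59.4 ± 5.05 CPM in Health, 175 ± 13.2 in BMT and 284 ± 93.3 in CDSCs. Ccnd2, the D-type cyclin that drives entry into the cell cycle, stood at 59.1 ± 7.07, 117 ± 26.7 and 181 ± 10.4 CPM.

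Meis3 (Selenow), on a small selenoprotein, had 90.3, 81.2 and 85.7 CPM in Health, 164, 139 and 187 in BMT and 287, 296 and 233 in CDSCs. Per2 had 72.7, 61.1 and 70.1 CPM in Health, 124, 135 and 136 in BMT and 214, 239 and 218 in CDSCs. It was among the most even of the abundant members. Its exons fell on Espnl over 1758 bases and on its neighbour Erfe, the erythroid hormone erythroferrone, over 324, and the share of either gene in its reads is unknown. Atp6v1d (Plek2), on a pleckstrin of the red cell lineage, had 68.7, 54.5 and 34.8 CPM in Health, 115, 129 and 131 in BMT and 218, 226 and 167 in CDSCs.

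Among the 31 members with at least 50 CPM in CDSCs the 2 largest ratios were those of rows on macrophage genes. The row Gm13003, listed at chr4:137159082-137165066 (GRCm38), was put into the group of neighbouring C1q genes, on C1qa by the genome-wide settings and on C1qc by the local scan. These genes code for chains of C1q, which starts the classical complement cascade and is made mainly by macrophages. It had 5.71, 3.36 and 7.71 CPM in Health, 65.1, 85.5 and 65.8 in BMT and 140.4, 159 and 136 in CDSCs. Every BMT mouse lay far above the highest Health mouse, and the total was 25.9 times.

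Mavs (Siglec1), listed at chr2:131234063-131248025, lies on the sialic acid receptor CD169 of resident macrophages. Its values were 3.36, 4.74 and 5.25 CPM in Health, 34.7, 50.3 and 44.1 in BMT and 77.1, 85.0 and 57.8 in CDSCs, or 16.5 times in total. Mrc1, the mannose receptor CD206, is listed at chr2:14229392-14332057, and its reads were placed on Mrc1 itself at a displacement of 5.1 kb. It read 2.35, 4.25 and 3.11 CPM in Health, 19.5, 31.0 and 24.7 in BMT and 43.7, 35.7 and 55.5 in CDSCs. On the log2 scale 81.0% of the rise of Mavs and 77.8% of that of Mrc1 had been reached in BMT.

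Cd163, the scavenger receptor for haemoglobin bound to haptoglobin, listed at chr6:124304656-124330527 and placed on itself, was low, with 0.671, 0.692 and 1.29 CPM in Health, 5.46, 3.67 and 2.63 in BMT and 11.2, 8.36 and 15.3 in CDSCs. Here 57.8% of the rise had been reached in BMT. Cdc14a (Vcam1), on the adhesion molecule that macrophages and stromal cells use to hold blood-forming cells, changed least, from 46.2 ± 7.41 CPM to 76.1 ± 2.45 and 99.2 ± 20.2. Its 3 displacements differed by 40.2 kb although they gave the same gene.

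The promoters of the 2 macrophage genes whose rows kept their own names, Mrc1 and Cd163, are shown with those of Ckb and of H2-Eb1 described further on, as examples of members placed by all 3 estimates. Each sequence is the 250 bases before the transcription start in RefSeq (build GRCm38.p6), 5′ to 3′ along the gene's strand, with any CCAAT box, any TATAAA box and any GGGCGG box on either strand in capitals. Mrc1 is taken from chr2:14229164-14229413 (+), Cd163 from chr6:124304401-124304650 (+), Ckb from chr12:111672339-111672588 (-) and H2-Eb1 from chr17:34305617-34305866 (+).
Mrc1: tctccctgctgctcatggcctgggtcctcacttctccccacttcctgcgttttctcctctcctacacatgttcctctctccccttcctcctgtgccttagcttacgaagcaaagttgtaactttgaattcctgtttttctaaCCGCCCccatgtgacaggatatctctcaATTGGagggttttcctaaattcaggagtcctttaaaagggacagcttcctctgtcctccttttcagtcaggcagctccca
Cd163: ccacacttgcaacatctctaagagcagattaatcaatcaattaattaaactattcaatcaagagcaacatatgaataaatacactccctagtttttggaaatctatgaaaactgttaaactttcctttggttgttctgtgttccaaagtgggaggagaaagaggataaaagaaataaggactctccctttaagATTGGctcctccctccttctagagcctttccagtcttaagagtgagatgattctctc
Ckb: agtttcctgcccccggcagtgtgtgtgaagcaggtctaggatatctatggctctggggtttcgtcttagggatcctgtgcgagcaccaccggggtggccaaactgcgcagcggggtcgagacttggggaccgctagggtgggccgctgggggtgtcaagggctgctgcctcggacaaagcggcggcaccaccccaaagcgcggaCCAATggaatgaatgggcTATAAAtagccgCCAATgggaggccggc
H2-Eb1: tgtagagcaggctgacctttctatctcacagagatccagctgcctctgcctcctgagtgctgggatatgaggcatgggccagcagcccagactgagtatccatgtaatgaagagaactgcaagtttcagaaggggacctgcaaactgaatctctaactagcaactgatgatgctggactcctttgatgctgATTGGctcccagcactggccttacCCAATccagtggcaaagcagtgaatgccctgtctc
All 4 windows held CCAAT, and only that of Ckb held TATAAA.

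These motifs were counted over all members with a placed gene. Over the 73 placed genes with an entry, CCAAT was present in 30.1% of the windows against 34.7% of all 26794, TATAAA in 6.85% against 13%, GGGCGG in 42.5% against 33.2%, the AP-1 type motif TGANTCA in 6.85% against 6.90% and the E-box CANNTG in 67.1% against 66.1%. These counts of letters on either strand describe the windows and say nothing of binding.

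The fixed list of 20 monocyte and macrophage markers was then followed by placement, a use of the list that was decided after the displacement had been seen. Rows were placed on 10 of its genes, and 5 were members (C1qa, Mrc1, Siglec1, Vcam1 and Cd163). Against Health 5 of the 10 were called higher in CDSCs and 4 lower, beside 8.69% and 8.28% of all rows, and the 5 called higher were the members. The 4 called lower were Csf1r (row Slc6a7), a growth factor receptor of monocytes and macrophages, Ccr2 (row Gm47179), F13a1 (row Fars2) and Lyz2 (row Gm32141). Lyz2 read 7420 ± 1990 CPM in Health, 5440 ± 2240 in BMT and 1870 ± 1060 in CDSCs, and Ccr2, a chemokine receptor of monocytes, read 315 ± 47.2, 128 ± 16.5 and 70.5 ± 30.5. The summed level of the list followed Lyz2, from 7760 to 12100 CPM in Health and from 1490 to 4050 in CDSCs. The remaining gene, Ly6c2 (row Gm10238), was not called and had 1150 ± 303, 1080 ± 248 and 597 ± 291 CPM, so only the members chosen for rising rose. None of the 10 was called between CDSCs and BMT. Another row, Nlrp4g, was a member and was also put on Ccr2 by the genome-wide settings, and it went the other way (14.5, 23.2 and 42.3 CPM), while the local scan gave no gene, so that its placement is in doubt.

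Under their listed names only 2 genes of this list, Mrc1 and Cd163, were members. Of the 11 tested these 2, chosen on the same values, were called higher in CDSCs than in Health and 1 was called lower. The shares of all rows were 8.69% higher and 8.28% lower, so 1 of 11 lower is near the background. The gene called lower was Siglec1, whose listed row had 11.9, 10.5 and 6.25 CPM and a log2 fold change of -0.99 from Health to CDSCs. Mavs, the row placed on Siglec1, was called higher, so the direction for this gene turns with the way rows are named.

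**Figure D4:**
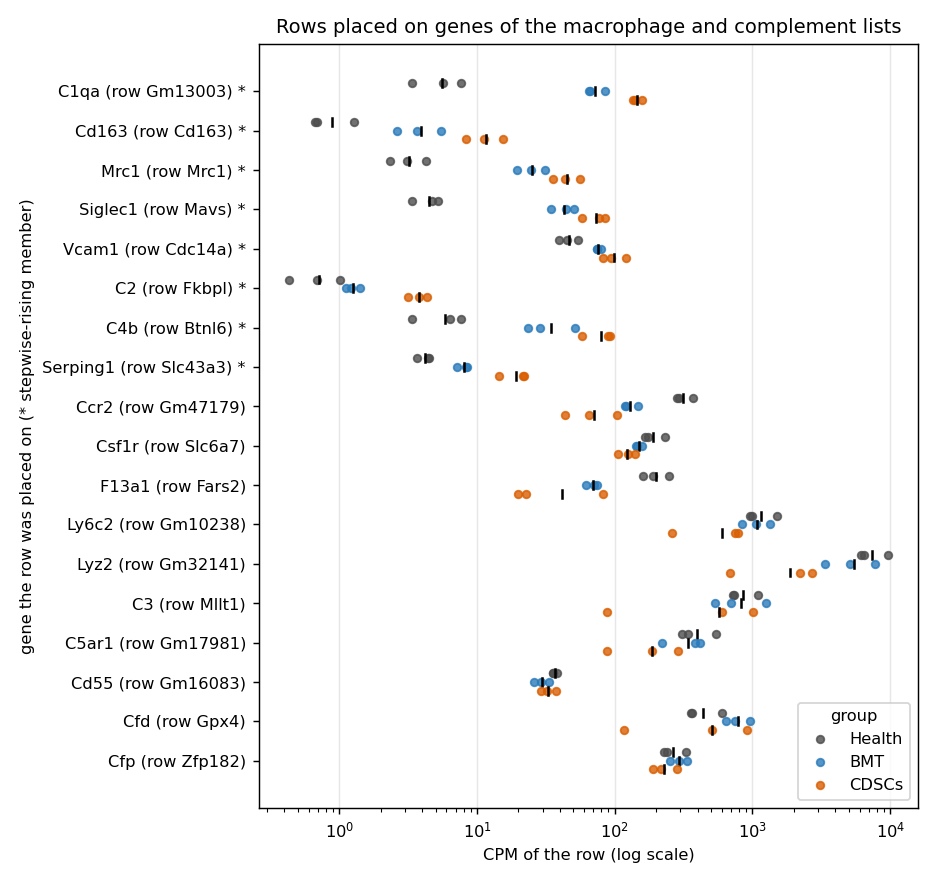
CPM on a log axis of the rows placed on genes of the macrophage and complement lists, 1 point per mouse and a black line at each group mean, with members of the stepwise set marked by a star. The 8 starred rows move to the right from Health to BMT to CDSCs, as their choice requires. All the macrophage genes without a star, Lyz2, Ly6c2, Ccr2, F13a1 and Csf1r, have their highest means in Health.

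Complement genes beyond C1q were also among the members. Btnl6 (C4b), listed at chr17:34507804-34517352, lies on the fourth component, which C1q activation leads to. It had 6.38, 3.36 and 7.71 CPM in Health, 28.8, 51.3 and 23.3 in BMT and 57.5, 92.9 and 89.6 in CDSCs, or 13.8 times in total. Slc43a3 (Serping1), on the inhibitor of C1, had 4.47, 3.66 and 4.39 CPM in Health, 8.47, 8.36 and 7.18 in BMT and 22.0, 14.5 and 21.5 in CDSCs. Its BMT mice were close together and the lowest CDSCs mouse was well above them.

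Fkbpl (C2), on the protease that C4b binds, rose late, from 0.709 ± 0.290 CPM in Health to 1.11, 1.22 and 1.42 in the BMT mice and 3.77 ± 0.604 in CDSCs. Gm20461 fell on Cfb, the factor B of the alternative pathway, over 129 bases and on the overlapping annotation Gm20547 over 138, and had 2.22, 5.82 and 19.9 CPM, with its CDSCs mice at 9.04, 17.2 and 33.4. C6, a protein of the membrane attack complex placed on itself, was near the lower limit with 2.39 CPM in CDSCs. Of the 17 genes in the complement list 9 had a placed row and 4 were members (C1qa, C2, C4b and Serping1). These 4, which had been chosen on the same values, were called higher in CDSCs than in Health and none of the 9 lower, beside 8.69% and 8.28% of all rows, while C3, Cfd, Cfp, C5ar1 and Cd55 were not called. C3 (row Mllt1), the central component, had 848 ± 209 CPM in Health and 567 ± 463 in CDSCs. Between CDSCs and BMT only Serping1 was called (log2 fold change 1.29), beside 0.326% of all rows called higher.

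Tyk2 fell on the neighbouring adhesion genes Icam5, over 962 bases, and Icam1, over 709. It stood at 53.8 ± 1.24 CPM in Health, 69.0 ± 12.6 in BMT and at 132, 115 and 106 in the CDSCs mice, so that only 31.8% of its rise on the log2 scale had been reached in BMT, at the low end of the 122 members with enough counts. Hp1bp3 (Ece1), on an enzyme that activates endothelin, Frmd4b, a scaffold protein placed on itself, and Gm17771 (Cp) were, like Tyk2, among the 16 members called between CDSCs and BMT, with log2 fold changes of 1.15, 1.01 and 1.75 at that step.

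Several members lay on genes of phagocytes that are in no list. These were chosen for their roles after their values had been seen. Grk1 (Gas6), on the bridging protein that marks dying cells for uptake, had 9.06, 6.72 and 6.11 CPM in Health, 20.4, 37.8 and 30.8 in BMT and 79.6, 38.9 and 49.5 in CDSCs. CDSCs mouse 2 was only just above the highest BMT mouse. 1110038B12Rik (Aif1), on a calcium-binding protein of macrophages, had 8.33 ± 1.33 CPM, 18.8 ± 4.45 and 33.0 ± 4.42. Dab2, an endocytic adaptor placed on itself, had 0.224, 0.0988 and 0.536 CPM in Health, 1.78, 4.38 and 2.33 in BMT and 8.35, 7.12 and 10.5 in CDSCs.

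BC051537 (H2-Eb1), listed at chr17:34083843-34095309, lies on a beta chain of the class II molecules that present peptides to CD4 T cells. It had 63.5, 64.5 and 46.6 CPM in Health, 77.0, 71.6 and 129 in BMT and 325, 169.7 and 204 in CDSCs. BMT mouse 3 stood apart from the other BMT mice. On the log2 scale 33.4% of the rise had been reached in BMT, a share that rests in large part on that mouse. Of the dendritic cell list, which shares the class II genes, 6 genes had a placed row and H2-Aa (row Col11a2) was the 1 called higher in CDSCs than in Health, beside 8.69% of all rows, with 1010 ± 166 CPM in Health, 1400 ± 443 in BMT and 3280 ± 1470 in CDSCs. H2-Aa was no member. Cd209a (row Fcer2a), a lectin of dendritic cells, was called lower both in CDSCs (log2 fold change -4.92) and in BMT (-2.23) than in Health. Of all rows 8.28% and 1.45% were called lower in these contrasts.

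Mcam (Thy1), on the surface glycoprotein of T cells and of some stromal cells, had 38.8, 38.6 and 37.8 CPM in Health, 50.7, 52.0 and 69.1 in BMT and 149.9, 92.2 and 139 in CDSCs. The Health mice differed by a coefficient of variation of only 1.39%. Cyth4 was put on Il2rb, the beta chain of the interleukin-2 receptor of T and NK cells, by the genome-wide settings but on Cyth4 itself by the local scan, so its gene is in doubt, and it had 35.9 ± 2.82 CPM, 70.6 ± 30.1 and 158 ± 42.3. Shpk (Itgae) and Trpv1 (Itgae) lie on different exons of the integrin chain CD103 of tissue-resident lymphocytes and dendritic cells. Shpk had 0.671, 1.19 and 0.214 CPM in Health, 5.02, 4.38 and 9.92 in BMT and 46.1, 20.6 and 28.5 in CDSCs, the largest ratio of the 122 members with enough counts at 46.0 times, while Trpv1 had 17.3, 30.8 and 61.6 CPM on average, a ratio of 3.55. The exons of Trpv1 also touch Haspin, over 96 bases, and what else it collects was not tested.

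Gm42462 (Cd38), on a cell surface enzyme that degrades NAD, had 17.5, 22.6 and 15.1 CPM in Health, 27.5, 34.8 and 32.5 in BMT and 74.7, 39.0 and 109 in CDSCs. Its CDSCs mice were spread widely and the lowest lay just above the BMT mice. Slc15a2 (Cd86), on a co-stimulatory ligand of antigen-presenting cells, had 6.49, 3.36 and 6.75 CPM in Health, 8.14, 6.83 and 8.50 in BMT and 22.4, 13.2 and 13.5 in CDSCs. On the log2 scale 31.9% of its rise was reached in BMT, a share that rests in large part on the low Health mouse 2. These rows were chosen for their roles after their values had been seen.

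Of the T and NK cell list 9 genes had a placed row and 8 were tested. Thy1, which is a member, and Ncr1, an activating receptor of NK cells placed on itself, were called higher in CDSCs than in Health and none lower, beside 8.69% and 8.28% of all rows. Thy1 alone was called higher than in BMT, beside 0.326% of all rows. Ncr1 had 6.57 ± 0.648 CPM in Health, 13.7 ± 5.71 in BMT and 21.3 ± 7.67 in CDSCs. The other 6, among them Cd3d (row Mpzl3, 35.6, 29.9 and 58.1 CPM) and Cd8a (row Rmnd5a, 94.4, 77.2 and 77.2), were not called. Both are named although not called, a choice made after their values were seen.

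Some members lay on genes that interferons are known to raise, and these too were chosen for their roles after their values had been seen. Serpina3h (Serpina3f), on a serine protease inhibitor, had 5.26, 8.40 and 5.68 CPM in Health, 29.9, 27.6 and 37.5 in BMT and 96.6, 97.0 and 85.9 in CDSCs, with the CDSCs mice close together. Gm33472 (Phf11a) and Gm48453 (Phf11b), on neighbouring genes of one family, had 5.41 and 12.4 CPM in BMT and 14.5 and 24.3 in CDSCs, with 1.34, 2.07 and 1.07 in the Health mice for the first and a mean of 8.18 for the second. Gm43855 (Gbp4), on a guanylate-binding protein, had 0.694, 1.86 and 5.52 CPM.

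Of the 30 genes of the interferon response list 13 had a placed row and 12 were tested, of which 3 (Oas1a in row Oas3, Oasl1 in row Ankrd13a and Igtp in row Zfp692) were called higher in CDSCs than in Health, beside 8.69% of all rows, 1 (Oas1a) higher in BMT than in Health, beside 0.994%, and none between CDSCs and BMT. The median log2 fold change of the tested genes was 0.76 in CDSCs and 0.75 in BMT against Health, beside -0.02 over all rows in both. Its summed level was between 890 and 964 CPM in Health, between 1510 and 2000 in BMT and between 890 and 2170 in CDSCs, so CDSCs overlapped both other groups. The 1 member on the list, Gm4951 (Iigp1), was at 1.19 CPM in CDSCs and did not pass the filter on low counts.

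The members with the largest ratios were mostly faint in Health. Gm47661, unplaced, went from 2.18 CPM in Health to 11.1 in BMT and 45.0 in CDSCs, a ratio of 20.7. Ptpn20 (Arhgap22), on a regulator of Rac GTPases, went from 0.351 CPM in Health to 5.12 in BMT and 13.6 in CDSCs, a ratio of 38.7, and Zc3h8, unplaced, from 0.467 to 8.25 and 16.9, a ratio of 36.1. Zc3h8 overlapped Mertk, the receptor for Gas6 on phagocytes, in all 3 estimates but by only 34 bases, under the 50 asked for. Arf3 (Cacnb3), on a calcium channel subunit, had 0.336, 0.988 and 1.39 CPM in Health, 4.68, 6.83 and 8.20 in BMT and 32.5, 27.3 and 14.8 in CDSCs.

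Necap2 (Padi3) and Pdk4, a mitochondrial kinase that restrains glucose oxidation and was placed on itself, had ratios of 19.5 and 19.9 with 9.62 and 8.06 CPM in CDSCs. Tnrc6a (Cacng3) had no count in any Health mouse, 2.23, 1.22 and 0.815 CPM in BMT and 10.5, 3.61 and 4.12 in CDSCs. Against 3 counts per Health mouse the CDSCs mean is at least 19.1-fold higher, a bound that CDSCs mouse 1 raises. Cyp2d10 (Sept3), Gm18981 (Cacna1c) and Gm807 (Zfp366) were under the level of 3 counts per mouse in Health and reached 12.4, 7.33 and 5.39 CPM in CDSCs. Adam23, unplaced, went from 0.271 CPM to 3.15 and 11.9, with the BMT mice at 1.23, 1.73 and 6.48.

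A few members lay on genes of stromal cells and matrix, and these were picked for their roles after their values had been seen. Svep1, a large adhesion protein placed on itself, had 2.80, 1.98 and 2.04 CPM in Health, 4.35, 5.71 and 5.87 in BMT and 13.8, 11.5 and 38.6 in CDSCs. CDSCs mouse 3 stood far above the other two, and the size of the second step rests on it. Traj16 (Mmp14), on a membrane-bound collagenase, had 4.86, 10.9 and 19.8 CPM. Yap1, a growth regulator of the Hippo pathway placed on itself, had 0.801, 2.18 and 5.52 CPM.

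Myo10, an unconventional myosin of filopodia placed on itself, had 12.8 ± 1.15 CPM in Health, 47.3, 39.2 and 48.5 in BMT and 81.0, 49.3 and 129 in CDSCs. CDSCs mouse 2 lay just above the highest BMT mouse. Dst, the cytoskeletal linker dystonin placed on itself, was more even, with 9.51, 9.19 and 8.78 CPM in Health, 22.5, 20.2 and 30.5 in BMT and 35.9, 37.4 and 52.7 in CDSCs. Abcc9 (Kcnj8), on the potassium channel of pericytes, had 0.587, 2.44 and 5.72 CPM, and its 3 displacements differed by 31.5 kb. Ndrg3 (Myl9), on the myosin light chain of smooth muscle by the genome-wide settings but placed on Dlgap4 by the local scan, had 0.826, 2.63 and 5.72 CPM. Calml4 (Itga11), on a collagen-binding integrin chain of fibroblasts, had 0.349, 0.767 and 2.00 CPM. Ephb4, the venous ephrin receptor placed on itself, had 0.246, 1.37 and 2.38 CPM, with a Health mean below the level of 3 counts per mouse.

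The matrix structure list held no member, by listed name or by placement. Of its 10 genes tested by placement 1, Bgn (row Ikbkg, log2 fold change 2.76), was called higher in CDSCs than in Health and 2 were called lower, Fn1 (row Atic, log2 fold change -3.91) and Thbs1 (row Gpr176, -2.89), beside 8.69% and 8.28% of all rows. A count of 1 in 10 is near that background.

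Of the stromal niche list 8 genes had a placed row and 4 were tested. Vcam1, which is a member, and Pdgfra (row Chic2), a growth factor receptor of marrow stroma, were called higher in CDSCs than in Health, beside 8.69% of all rows, none was called between CDSCs and BMT, and Pdgfra had 0.611 ± 0.541 CPM in Health, 1.21 ± 0.446 in BMT and 2.76 ± 0.839 in CDSCs. No row was placed on Cxcl12, Kitl, Lepr, Acta2 or Tagln. The list's summed level was between 42.0 and 56.0 CPM in Health, between 77.3 and 80.8 in BMT and between 92.3 and 125 in CDSCs, most of it from Vcam1. The endothelial list (16 genes, 6 with a placed row) overlapped between all groups, with sums between 64.2 and 125 CPM, and the chondrocyte list (14 genes, 7 with a placed row) summed to between 2.35 and 3.43 CPM in Health, between 3.77 and 5.13 in BMT and between 4.69 and 6.09 in CDSCs.

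In the Wnt list, which holds ligands, receptors and the nuclear factors of that pathway, 9 of 20 genes were tested. Lrp6, a co-receptor placed on itself, was a member with 22.3, 19.8 and 21.5 CPM in Health, 33.5, 33.5 and 39.7 in BMT and 80.7, 58.6 and 58.9 in CDSCs. Its exons fell on Lrp6 over 1339 bases and on Bcl2l14 over 1211. Parva (Dkk3), for which the local scan gave no gene, had 0.840 CPM in Health and 10.4, 3.30 and 4.12 in the CDSCs mice. Lrp6, Dkk3 and Tcf7l2, of which the first 2 are members, were called higher in CDSCs than in Health, beside 8.69% of all rows, none lower, and Lrp6 alone higher than in BMT, beside 0.326%. In the p53 list 3 of 8 tested genes were called higher in CDSCs than in Health, among them the member Tnnt2 (Phlda3), on a p53 target that had 3.20 CPM in Health, 14.3 in BMT and 19.2 in CDSCs, and 1, Btg2 (row Chit1), was called lower, beside 8.69% and 8.28% of all rows.

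The erythroid and neutrophil lists held no member by placement. The erythroid list (11 of 22 genes with a placed row) had sums from 12400 to 29500 CPM in Health and from 12500 to 27000 in CDSCs. The neutrophil list (5 of 20) had sums from 4670 to 7570 CPM in Health, from 4240 to 7330 in BMT and from 1210 to 3870 in CDSCs, and 2 of its 5 genes, Mmp8 and Csf3r (row Stk40), were called lower in CDSCs than in BMT, beside 0.7% of all rows. Defining neutrophil genes such as S100a8, Ltf and Ly6g had no placed row. Any shift in the share of these cells moves the CPM of all other rows, and its part in the members' rise was not tested.

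Members were not independent of each other. Itga9, Vill and Ctdspl all lay on Itga9, the integrin alpha-9 chain, and rose to 9.03, 10.8 and 2.24 CPM in CDSCs. Shisa4 and Lmod1 lay on Timm17a, a subunit of the mitochondrial import channel, Cacna1c and Gm18981 on Cacna1c, Gm17771 and Gm37523 on the ferroxidase Cp, and Cyp2d10 and Cyp2d11 on Sept3, so that the 99 rows placed by 3 estimates stood for 92 genes. Shisa4 and Lmod1 had ratios of 2.11 and 2.17. The 3 listed Slc genes, Slc38a2, Slc15a2 and Slc43a3, were placed on Slc38a1, Cd86 and Serping1 and share only their listed name.

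The 41 rows that could not be placed are given by their listed names. Their means in CDSCs ran from 1.20 CPM in Gm24593 to 329.99 in Kmt5c. Obp2b, for which the 3 estimates disagreed, had 2.68, 1.68 and 3.00 CPM in Health, 21.6, 21.2 and 20.3 in BMT and 33.1, 38.3 and 27.8 in CDSCs, a ratio of 13.5, of which 82.7% on the log2 scale had been reached in BMT. Gm30232 stood out for its even CDSCs mice at 17.4, 18.6 and 18.0 CPM, after 6.02 ± 1.30 in Health and 11.2 ± 2.33 in BMT. What these rows count is unknown. The 7 rows with no count in any Health mouse were Tnrc6a (Cacng3), Cyp2d11 (Sept3), Adamts2 and the unplaced Gm11964, Trim40, Pofut2 and Gm53052. Their lower bounds in CDSCs ran from 3.80 times in Gm53052 to 19.1 times in Tnrc6a. Adamts2 was placed on itself by the genome-wide settings but on Zfp354c by the local scan.

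The densest run of members was on chromosome 17, where 8 rows between 34083843 and 34952471 (GRCm38, listed positions) were members. At the displacement of 219.1 kb this stretch reaches into the class II and class III region of the major histocompatibility complex. Its placed rows were BC051537 (H2-Eb1), H2-Ob (BC051142), Btnl2 (Notch4), Btnl6 (C4b), Fkbpl (C2) and 1110038B12Rik (Aif1), with Gm20461 on Gm20547 or Cfb and Pbx2 unplaced. Btnl2 (Notch4), on a Notch receptor of endothelial cells, had 2.64 CPM in Health, 9.40 in BMT and 18.8 in CDSCs.

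Properties that the selection did not use were set beside those of all rows with at least 1 CPM in CDSCs, with no test. Predicted names made up 28.5% of members and 26.9% of those rows, protein-coding names 70.6% and 73.2%, and the median exon length was 3511 bases for members and 3522 for those rows. Chromosome 17 held 7.84% of members against 4.39% of those rows, chromosome 15 held 8.50% against 4.12% and chromosome 19 held 0.654% against 3.68%.

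The faintest members carried few reads. In 51 members the CDSCs mean was under 5 CPM, and 11 of the 158 did not pass the filter on low counts. In 34 members the gap between neighbouring groups was under 5% at 1 of the 2 steps or both, and 60 had a gap of at least 25% at both. Cibar1 was the closest case, with its lowest CDSCs mouse 0.181% above its highest BMT mouse. Leaving out each mouse in turn kept between 144 and 158 of the 158 while adding others.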

How the data were processed

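RNA-seq of bone marrow was carried out on 9 mice in 3 groups. Per the study's methods and the submitters' processing notes, the authors trimmed reads with Trim Galore, checked them with FastQC and MultiQC, aligned them to GRCm38 with HISAT2 and counted reads per gene with featureCounts. The annotation used for counting is not given in the sources used here. The authors deposited raw read counts and TPM values (scaled for length and depth), with no other columns of per-sample values (0). The counts were used, and TPM only as an alternative. Between 8741155 and 10181289 counts per mouse set the precision, and no 2 libraries of a group agreed within sampling noise. No source says whether libraries were processed on separate days.

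CPM was the count divided by the mouse's total over all rows, times 1000000. Contrasts were fitted with edgeR 4.0.16 in R 4.3.3 (TMM normalisation, filterByExpr by group, 1 quasi-likelihood fit over all 9 mice, two-sided, Benjamini-Hochberg adjusted p under 0.05 over 12572 rows). The study names no unit of pairing, and mice with the same number were treated as different animals. Displacements were estimated along each chromosome in steps of 100 bases within 2 Mb on GENCODE M21. A row was placed where the estimates gave the same gene with at least 50 bases of overlap and where at least 80% of its 20 nearest rows in use overlapped exons. The scan used the 30 nearest rows. The fit and the displacement were also run on simulated data, and the outcome is not reported here. Promoters came from RefSeq. Python 3.11.15, numpy 2.4.6, pandas 2.3.3, scipy 1.17.1, matplotlib 3.10.9 and DESeq2 1.42.0 (as an alternative) were used.

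The members and the gene lists were chosen with earlier results of these data known. Named are the 15 members with the highest mean in CDSCs, the 15 with the largest ratio to Health (with a floor of 3 counts), members in a list, members next to a limit and families with 3 or more members. Other rows named were chosen after their values were seen. The comparisons share their mice. Other scalings, limits, filters and tools, and leaving out each mouse, were tried. Some members are not reported here.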

Additional observations from a re-analysis of the deposited data

How the results depend on the processing

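The number of members was 158 and was between 107 and 172 with TMM-scaled CPM (147, of which 136 were among the 158), the deposited TPM (153, 141 among them), other step limits, other minimum levels and no name filter. With the order of group means alone it was 794. Leaving out 1 mouse in turn gave between 174 and 274 members, the latter without CDSCs replicate 1, since fewer mice have to keep the order. Members called higher in CDSCs than in Health were between 141 and 154 under every alternative run. Those called between BMT and Health were 49, and 78 with DESeq2, 80 with the likelihood ratio test, 89 with no filter on low counts and between 25 and 65 with 1 mouse left out. Those called between CDSCs and BMT were 16, and 80, 84 and 85 under the same 3 alternatives, 1 with only the 6 mice compared, and between 0 (without BMT replicate 1) and 31 (without CDSCs replicate 3) with 1 mouse left out. Over all rows tested the 2134 calls of CDSCs against Health became 1273 with the 6 mice alone and between 1071 and 2640 with 1 mouse left out. The 307 of BMT against Health became 709 with DESeq2, 699 with the likelihood ratio test, 948 with no filter, 807 with 6 mice and between 102 and 681. The 129 of CDSCs against BMT became 706, 730, 1260 and 7 in that order, and between 2 and 491. The causes were not tested.

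Mice with the same number are not pairs by the labels, and the correlations of their deviations from the group means ran from -0.341 to 0.216. With the replicate number as a block the members called were 142, 37 and 2 for CDSCs against Health, BMT against Health and CDSCs against BMT, and the calls over all rows were 1507, 197 and 22. The median log2 fold change of the members tested was 1.32 for BMT against Health, with a range from 1.21 to 1.39, and 1.02 for CDSCs against BMT, with a range from 0.92 to 1.12. With 3 mice a group and rows of few counts, single mice decide the place of members with narrow gaps.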
